A study of Homo sapiens with 12 samples.

Results

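The comparison was between BT549 cells that received c-Jun siRNA and then TNFα and BT549 cells that received a control siRNA and then TNFα, 3 arrays each, which are 6 of the 12 arrays in the series. BT549 is a human breast cancer line of the triple-negative, mesenchymal kind, and JUN encodes c-Jun, a subunit of the transcription factor AP-1. The c-Jun siRNA was a pool, so no single siRNA can be judged on its own. Both groups had 72 hours of siRNA and then 6 hours of TNFα, and the other 6 arrays carried the same 2 siRNAs with vehicle in place of TNFα. The members are the 17958 genes with a probe set of their own on the Affymetrix human gene array. Levels are on a log2 scale, so a difference of 1 is a doubling or a halving, and differences are c-Jun siRNA minus control siRNA with a standard error.

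Of 12 basal and BT549 markers 7 were measured, and 5 lay above the array medians in both TNFα groups, namely VIM, CAV1, CD44, KRT5 and EGFR. The medians are over all 33297 probe sets, of which 12061 have no gene symbol here. The share of all genes above them was not counted, so these counts do not by themselves identify the cells. Of 15 luminal markers 7 also lay above the medians, namely ERBB2, GATA3, XBP1, KRT8, KRT18, ELF3 and PRLR, while the hormone receptor genes ESR1 and PGR lay below. Above the medians were also 8 of 13 fibroblast and pericyte markers and 3 of 12 endothelial ones. Of 13 leukocyte markers only CD68 lay above the medians, and none of the 13 changed between the groups. No label says that the replicates of a group were grown as separate cultures, and the spread behind the p-values may therefore be technical. The array name of replicate 3 of the c-Jun siRNA and TNFα group reads as another run of replicate 1. Over all genes, the SD of the difference between these arrays was 0.121, the smallest in their group, against 0.142 and 0.133 for its other pairs. For all other pairs of arrays within a group it ran from 0.119 to 0.142. The section on processing gives the counts and the calls of named genes that change when the pair is averaged.

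AP-1 is a dimer of a Jun protein with a Fos, ATF or another Jun protein, and it binds the letters TGACTCA or TGAGTCA in DNA. TNFα binds its receptors on the cell and switches on 2 sets of transcription factors, NF-kB through the IKK kinases and AP-1 through the JNK and p38 kinases. Many inflammatory genes hold sites for both, and c-Jun is known from breast cancer and fibroblast work for its place in cell movement, matrix breakdown and proliferation.

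The promoters of 5 genes are shown because they hold the AP-1 letters close to the start of the gene, and because their genes moved in opposite ways. RTL9, TNFRSF9, DHRS3 and ARHGDIB follow from a rule on the largest changes, and CXCL8 was chosen after its values were seen, because it holds the same pair of motifs as TNFRSF9. The stretches are RefSeq promoters on GRCh38.p14, written 5′ to 3′ on the gene's strand. They run from 250 bases before to 50 bases after the gene's start. For RTL9 2 promoters were listed, and for DHRS3 and ARHGDIB 3 each, of which 1 is shown, so positions are from the start of that promoter. RTL9 lies at chrX:110418807-110419106 (plus strand), TNFRSF9 at chr1:7940790-7941089 (minus strand), DHRS3 at chr1:12596564-12596863 (minus strand), ARHGDIB at chr12:14951102-14951401 (minus strand) and CXCL8 at chr4:73740319-73740618 (plus strand). Capitals mark the AP-1 letters and, in TNFRSF9 and CXCL8, the NF-kB letters GGAATTTCC.
RTL9: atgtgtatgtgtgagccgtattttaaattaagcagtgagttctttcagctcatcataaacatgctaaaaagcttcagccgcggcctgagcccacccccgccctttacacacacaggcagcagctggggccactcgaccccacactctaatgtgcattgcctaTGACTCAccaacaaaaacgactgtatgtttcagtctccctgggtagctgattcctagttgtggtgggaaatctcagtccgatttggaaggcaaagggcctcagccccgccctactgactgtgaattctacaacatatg
TNFRSF9: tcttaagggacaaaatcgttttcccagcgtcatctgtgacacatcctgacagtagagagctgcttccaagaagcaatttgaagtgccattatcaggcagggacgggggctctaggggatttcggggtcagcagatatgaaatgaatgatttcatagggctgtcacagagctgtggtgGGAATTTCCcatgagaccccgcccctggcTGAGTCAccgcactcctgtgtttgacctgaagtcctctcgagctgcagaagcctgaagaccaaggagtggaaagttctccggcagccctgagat
DHRS3: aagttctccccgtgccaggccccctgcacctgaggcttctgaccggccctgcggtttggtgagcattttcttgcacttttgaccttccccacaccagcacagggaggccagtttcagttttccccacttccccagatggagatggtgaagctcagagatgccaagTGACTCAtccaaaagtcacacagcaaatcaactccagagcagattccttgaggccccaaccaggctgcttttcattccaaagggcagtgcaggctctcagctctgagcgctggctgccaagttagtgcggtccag
ARHGDIB: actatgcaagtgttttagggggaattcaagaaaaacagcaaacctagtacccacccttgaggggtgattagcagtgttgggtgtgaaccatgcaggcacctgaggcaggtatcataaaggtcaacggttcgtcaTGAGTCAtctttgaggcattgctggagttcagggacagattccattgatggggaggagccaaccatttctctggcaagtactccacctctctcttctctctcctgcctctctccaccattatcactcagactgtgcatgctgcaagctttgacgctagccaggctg
CXCL8: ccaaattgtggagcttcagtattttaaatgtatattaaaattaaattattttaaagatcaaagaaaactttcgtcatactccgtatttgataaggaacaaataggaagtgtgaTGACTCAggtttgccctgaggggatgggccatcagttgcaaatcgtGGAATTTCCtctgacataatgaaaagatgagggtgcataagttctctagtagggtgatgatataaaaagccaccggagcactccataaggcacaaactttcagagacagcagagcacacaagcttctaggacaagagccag
The AP-1 letters begin at base -88 from the start in RTL9, -44 in TNFRSF9, -85 in DHRS3, -116 in ARHGDIB and -137 in CXCL8. The NF-kB letters begin at -73 in TNFRSF9 and -91 in CXCL8. RTL9 and TNFRSF9 fell with c-Jun siRNA, and DHRS3, ARHGDIB and CXCL8 rose. A promoter was listed for 13864 of the 17958 genes. TGACTCA and TGAGTCA are each other's reverse complement. Among genes with a listed promoter, these letters were counted for 5.84% of those that were lower and 4.43% of those that were higher. Over all such genes it was 5.29%. Among 35116 RefSeq promoters of this length, 4.95% held the AP-1 letters, 1.85% the CRE letters TGACGTCA and 0.461% the NF-kB letters GGAATTTCC or GGAAATTCC, on either strand. By gene again, the AP-1 letters were counted for 12.5% of 56 genes at least 2-fold lower and for 6.56% of 61 at least 2-fold higher. Of the 20 largest falls 12 had a listed promoter and 2 held the letters, RTL9 and TNFRSF9, and of the 20 largest rises 15 had one and 3 held them, DHRS3, ARHGDIB and RAB3B. The matches describe letters in these windows and do not show binding.

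JUN itself fell with c-Jun siRNA but was not lost. It measured 10.36, 10.33 and 10.39 with c-Jun siRNA and TNFα, against 11.12, 11.05 and 11.05 with control siRNA and TNFα. The groups did not overlap. The difference of -0.71 ± 0.032 left 61.1% of the control level (limma, adjusted p = 9.26e-12). With vehicle the difference was -0.52, and the difference between the 2 effects was -0.19 ± 0.045 (adjusted p = 0.0173, but 0.054 without control siRNA and TNFα replicate 1). TNFα moved JUN by 0.53 in cells with c-Jun siRNA and by 0.72 in cells with control siRNA, contrasts that share arrays with the knockdown comparison. JUN with c-Jun siRNA and TNFα was about where it stood with control siRNA and vehicle, whose mean was 10.35. The siRNA acts on RNA and the arrays give no protein level. They measured bulk RNA, in which fewer cells with a transcript and less of it per cell cannot be told apart.

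Of the other Jun and Fos genes measured, FOSL2 rose by 0.23 ± 0.036 (adjusted p = 5.88e-05) and JUND fell by 0.13 ± 0.045 (adjusted p = 0.0377). The JUND call was lost without control siRNA replicate 1 or 2 or c-Jun siRNA replicate 1 or 2, with adjusted p values of 0.0604 to 0.162. FOSL2 measured 10.39, 10.38 and 10.41 with c-Jun siRNA, against 10.17, 10.21 and 10.12 with control siRNA, so its groups were apart. FOSL1, the other Fra protein gene, differed by 0.04 (adjusted p = 0.61), JUNB by 0.12 (adjusted p = 0.072), FOS by 0.14 (adjusted p = 0.111) and FOSB by -0.03 (adjusted p = 0.867), none past the threshold. Among 11 ATF, BATF, JDP2 and small MAF genes, whose proteins can pair with Jun or Fos proteins, 1 rose and 3 fell: ATF4 rose by 0.17, and MAFF fell by 0.32 (-0.21 without c-Jun siRNA replicate 2), MAFG fell by 0.27 and ATF2 fell by 0.14. Of 12 genes for kinases upstream of AP-1, 2 fell and none rose (16.7% lower, near the 14.4% over all genes). MAP3K8, a kinase that TNFα and NF-kB signalling use, fell by 0.42 ± 0.076, and MAP2K6, which activates p38, fell by 0.29.

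The knockdown moved a large share of the transcriptome by small amounts. With c-Jun siRNA, 2534 genes were higher (14.1% of 17958) and 2582 were lower (14.4%), together 28.5% (limma, adjusted p under 0.05). Counts of list members are to be read against these shares. The median size of these changes was 0.27, and 74 genes were at least 2-fold higher (0.412%) and 74 at least 2-fold lower (0.412%). The 3 arrays of each group did not overlap for 6913 genes (38.5%), which include 4974 of the 5116 called. The first principal component of the 6 arrays held 72.8% of the variance and separated the groups. Its scores were 16.0 to 16.5 for c-Jun siRNA and -16.4 to -16.1 for control siRNA. On the second, with 8.59%, c-Jun siRNA replicates 1 and 3 scored 7.5 and 3.35, and replicate 2 scored -10.7. The array names carry a number whose meaning no label states. It was 7 for 1 c-Jun siRNA and 2 control siRNA arrays with TNFα, and 9 for 2 and 1, so that a comparison within either value sets a group of 1 array, assumed to vary like the others, against 2. On these terms the fit called 1730 genes higher and 1719 lower within value 7, and 1577 higher and 1605 lower within value 9.

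The vehicle arrays give the same knockdown in other samples. There 2583 genes were higher (14.4%) and 2600 lower (14.5%) with c-Jun siRNA. The same direction was called in both for 1747 of the genes higher with TNFα, which are 68.9% of the TNFα calls and 67.6% of the vehicle calls. For genes that were lower it was 1622, or 62.8% and 62.4%. Genes that were lower with TNFα but higher with vehicle numbered 84, and genes that were higher with TNFα but lower with vehicle numbered 20.

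**Figure D1:**
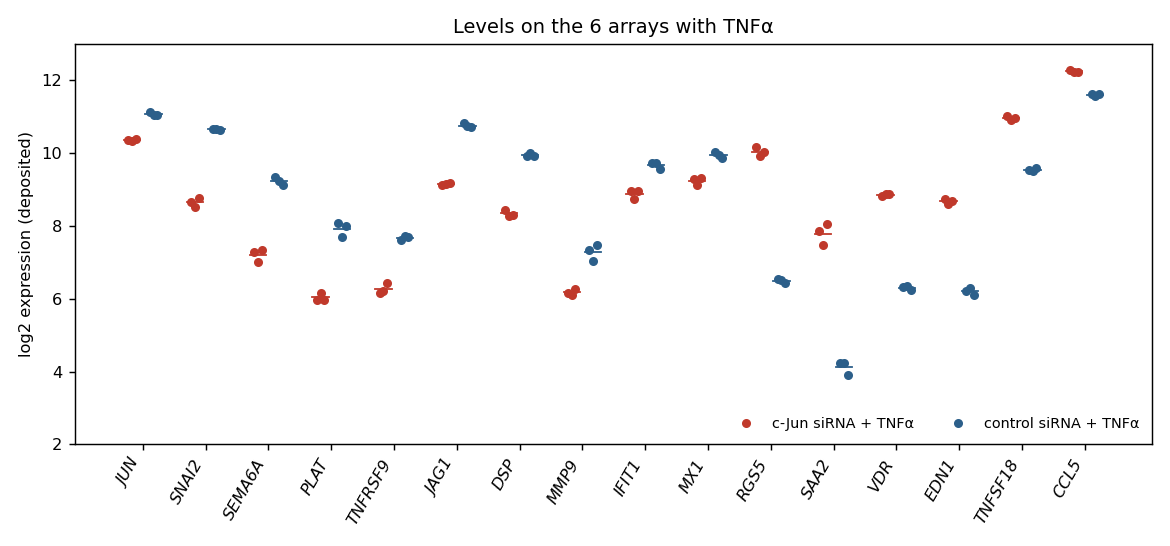
Deposited log2 expression (vertical axis) of 16 genes on the 6 arrays with TNFα: each point is an array, and the short lines are means of 3 arrays, with c-Jun siRNA left of control siRNA for each gene. The groups do not overlap for any gene shown. The differences are -0.71 for JUN, -2.01 for SNAI2 and 3.55 for RGS5.

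The largest falls were in SEMA6A, SNAI2, PLAT, SATB1 and PTX3, all lower by more than 3-fold with c-Jun siRNA. SEMA6A, a transmembrane semaphorin that acts in cell guidance, measured 7.30, 7.0 and 7.33 with c-Jun siRNA and TNFα, against 9.33, 9.24 and 9.12 with control siRNA and TNFα, a difference of -2.02 ± 0.11 (adjusted p = 1.47e-10), against -0.92 with vehicle. SNAI2, which encodes the epithelial-mesenchymal transition factor SLUG, measured 8.67, 8.52 and 8.76, against 10.67, 10.67 and 10.63 with control siRNA, a difference of -2.01 ± 0.051 (adjusted p = 6.17e-15), against -1.44 with vehicle. The groups were far apart for both genes, which were chosen among genes whose arrays do not overlap. PLAT, the tissue-type plasminogen activator, stood at 5.97, 6.17 and 5.97 with c-Jun siRNA, against 8.09, 7.69 and 7.99 with control siRNA, a difference of -1.89 ± 0.097, against -0.61 with vehicle. PTX3, a soluble pattern-recognition protein induced by TNFα, was at 4.92, 5.32 and 4.89, against 6.65, 6.68 and 7.06 with control siRNA. Its difference was -1.75 ± 0.12 with TNFα and -0.05 with vehicle, where it lay near 4 in both groups. 

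TNFRSF9, the costimulatory receptor 4-1BB, whose promoter with AP-1 and NF-kB letters is printed above, measured 6.15, 6.22 and 6.43 with c-Jun siRNA and TNFα, against 7.61, 7.73 and 7.69 with control siRNA and TNFα. It fell by 1.41 ± 0.083 (adjusted p = 3.54e-10). In vehicle its difference was 0.26, and the TNFα response was 1.44 in cells with c-Jun siRNA and 3.12 in cells with control siRNA. RTL9, a gene derived from a retrotransposon, fell by 1.73, and JAG1, a Notch ligand, fell by 1.61. JAG1 measured 9.14, 9.15 and 9.18 with c-Jun siRNA, against 10.82, 10.74 and 10.72 with control siRNA. DSP, the desmosome plaque protein desmoplakin, measured 8.43, 8.28 and 8.31, against 9.93, 9.99 and 9.92 with control siRNA. Both were about as far apart with vehicle, JAG1 at -1.48 and DSP at -1.72.

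The other 12 of the 20 largest falls ran from -1.85 for SATB1, a chromatin organiser, to -1.39 for CPNE8, a copine. Between them lay ADRA1D at -1.61, EOMES at -1.58, PDGFRL at -1.58, MAOB at -1.58, GFRA2 at -1.50, RSPO2 at -1.49, RNF150 at -1.45, MATN2 at -1.44, GRIN2A at -1.43 and TANC2 at -1.43. ADRA1D is an adrenergic receptor, EOMES a T-box transcription factor, MAOB a mitochondrial monoamine oxidase, GFRA2 a receptor for neurturin, RSPO2 a Wnt agonist and MATN2 a matrix protein. MAOB differed by -0.45 with vehicle, RNF150 by -0.17 and CPNE8 by -0.13, while PDGFRL differed by -1.85 and ADRA1D by -1.53.

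The largest rises were in SAA2, RGS5, ADGRG6, DHRS3, VDR and EDN1, all higher by more than 4-fold with c-Jun siRNA. SAA2, serum amyloid A, measured 7.85, 7.48 and 8.05 with c-Jun siRNA and TNFα, against 4.24, 4.23 and 3.90 with control siRNA and TNFα, a difference of 3.67 ± 0.13 (adjusted p = 2.98e-13), against 1.17 with vehicle. The control arrays lie near background for SAA2, and with values under 5 set to 5 its difference was 2.79, below that of RGS5. A dimmer probe set for SAA2 differed by 0.54 (adjusted p = 0.0483 over all probe sets), and the mean of both probe sets by 2.10. SAA1, its near-identical neighbour, rose by 1.14 at a level near background, and hybridisation may not tell the 2 genes apart. RGS5, a regulator of G-protein signalling known from pericytes, measured 10.17, 9.92 and 10.04, against 6.54, 6.53 and 6.43 with control siRNA, a difference of 3.55 ± 0.062 (adjusted p = 5.85e-17). With vehicle it differed by 3.85.

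VDR, the vitamin D receptor, measured 8.84, 8.86 and 8.89 with c-Jun siRNA and TNFα, against 6.33, 6.34 and 6.24 with control siRNA and TNFα, a rise of 2.56 ± 0.066 (adjusted p = 7.1e-15), against 2.61 with vehicle. DHRS3, a retinaldehyde reductase, measured 9.83, 9.95 and 9.99, against 7.01, 7.0 and 7.05 with control siRNA, a rise of 2.90 ± 0.053 (adjusted p = 6.47e-17), against 2.34 with vehicle. No array of either group came within 2 units of the other group for these genes, which were chosen among genes without overlap. The rest of the vitamin D and retinoid list did not follow VDR and DHRS3: of 19 measured, 3 rose and 5 fell, with a median of 0.01. The retinoic acid receptor genes RARA and RARG differed by -0.55 and -0.47, and CRABP2, a retinoic acid carrier, by -0.42.

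EDN1, which encodes the vasoconstrictor endothelin-1, measured 8.75, 8.61 and 8.68 with c-Jun siRNA and TNFα, against 6.21, 6.31 and 6.11 with control siRNA and TNFα, a rise of 2.47 ± 0.074 (adjusted p = 5.38e-14). With vehicle it differed by 0.81. Its TNFα response was 1.83 in cells with c-Jun siRNA and 0.17 in cells with control siRNA. IGFL1, an insulin-growth-factor-like secreted protein, measured 6.76, 7.20 and 7.19, against 5.42, 5.15 and 5.44 with control siRNA, a rise of 1.71 ± 0.12, with a vehicle difference of -0.10. ADM, the vasodilator adrenomedullin, rose by 1.62 with TNFα and differed by 0.88 with vehicle. The rest of the 20 were ADGRG6 at 2.93, an adhesion G-protein-coupled receptor, ARHGDIB at 2.17, ITM2A at 2.14, TDO2 at 2.07, a tryptophan-degrading enzyme, and IL22RA2 at 1.97, a decoy receptor for interleukin 22. PADI2 at 1.89, TGM2 at 1.89, GFRA1 at 1.79, RAB3B at 1.74, CPM at 1.70, TMC5 at 1.66, TRNP1 at 1.58 and PADI3 at 1.58 closed the list. PADI2 and PADI3 are protein-citrullinating enzymes and TGM2 is a transglutaminase.

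**Figure D2:**
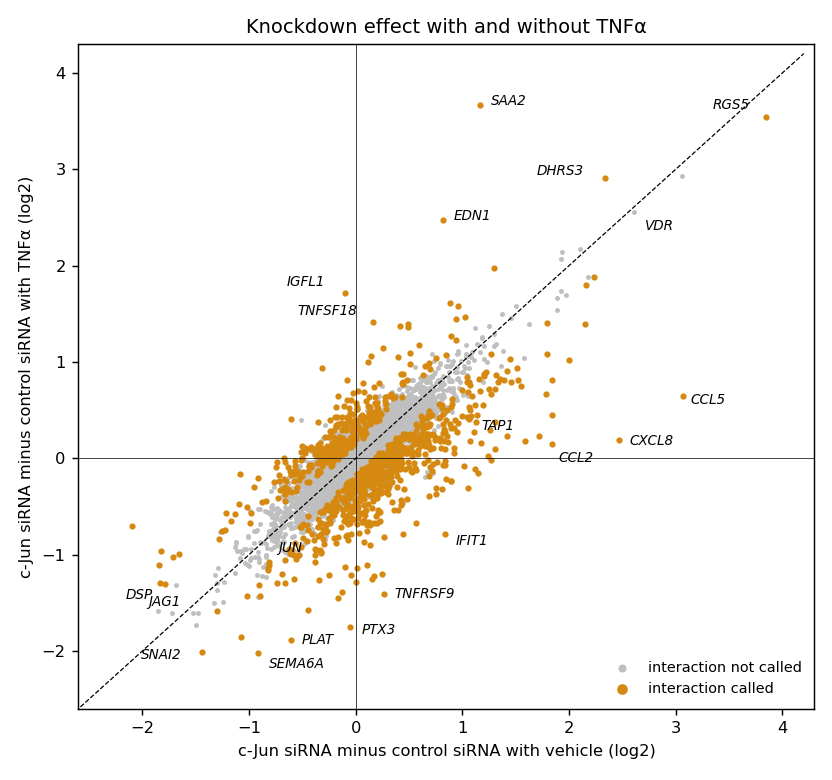
Difference between c-Jun siRNA and control siRNA for 17958 genes, with TNFα (vertical axis, log2) and with vehicle (horizontal axis, log2). Each point is a gene, orange where the difference between the 2 effects was called (983 genes), and the dashed line marks equal effects. RGS5, VDR and DSP lie close to the line, SAA2 and EDN1 above it, and CCL5, CXCL8, TNFRSF9 and PTX3 below it.

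Genes of the epithelial-mesenchymal transition programme were split. Of 9 transition factors measured, 5 fell and 1 rose, against a share of 14.4% lower and 14.1% higher over all genes. The list's median was -0.21 against 0.00 over all genes. With vehicle 6 were lower and 1 higher, with a median of -0.27, and all 5 falls with TNFα were also called there. After SNAI2 came ZEB2, a zinc-finger factor of the same programme, which measured 9.35, 9.46 and 9.40 with c-Jun siRNA and TNFα, against 10.21, 10.17 and 10.19 with control siRNA and TNFα. It fell by 0.78 ± 0.039 (adjusted p = 4.04e-11), against a difference of -0.41 with vehicle. A second, dim ZEB2 probe set differed by -0.35 (adjusted p = 0.215 over all probe sets). TWIST2 fell by 0.47, TWIST1 fell by 0.21 (-0.14 without c-Jun siRNA replicate 2), PRRX1 fell by 0.21, and TCF4 rose by 0.15 (0.09 and not called without control siRNA replicate 3), while ZEB1 differed by -0.04 (adjusted p = 0.55), SNAI1 by 0.12 (adjusted p = 0.31) and FOXC2 by -0.09 (adjusted p = 0.491).

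Of 24 epithelial junction and keratin genes, 5 rose and 4 fell (20.8% and 16.7%, near the 14.1% and 14.4% over all genes). KRT18, a simple-epithelium keratin, rose by 0.72 and CDH1, E-cadherin, by 0.95 ± 0.090, although CDH1 was still dim at 5.61, 5.42 and 5.42 with c-Jun siRNA, against 4.63, 4.58 and 4.40 with control siRNA. With values under 5 set to 5 the CDH1 difference was 0.48. The 4 falls were in genes of desmosome proteins, DSP, DSC2 at -0.77, DSC3 at -0.32 and JUP at -0.22. Of 12 mesenchymal structural genes, 4 rose and 3 fell (33.3% and 25%). FN1, fibronectin, fell by 0.60 (-0.36 as the mean of its probe sets) and CDH11, a mesenchymal cadherin, fell by 0.54, whereas MYLK, the myosin light chain kinase, rose by 0.95.

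Of 16 matrix metalloproteinase genes measured, 8 fell and 1 rose, or 50% and 6.25% against 14.4% and 14.1% over all genes, with a median of -0.31. The ADAM and ADAMTS proteases, which cut cell-surface and matrix proteins, had 4 rises and 2 falls of 15 (26.7% and 13.3%). MMP9, the gelatinase B, measured 6.16, 6.11 and 6.27 with c-Jun siRNA and TNFα, against 7.35, 7.05 and 7.47 with control siRNA and TNFα, a difference of -1.11 ± 0.097 (adjusted p = 6.42e-08). Its vehicle difference was 0.10, and its TNFα response was 0.23 in cells with c-Jun siRNA and 1.44 in cells with control siRNA. MMP1, the interstitial collagenase, stood at 9.43, 9.22 and 9.29, against 9.90, 9.78 and 9.80 with control siRNA, a difference of -0.51 ± 0.066 with TNFα and 0.15 with vehicle. The other falls were MMP11 at -1.08, MMP12 at -0.69, MMP2, the gelatinase A, at -0.58, MMP13 at -0.56, MMP14, the membrane-bound activator of MMP2, at -0.55 and MMP16 at -0.45. MMP3, stromelysin 1, rose by 0.53. MMP12 and MMP13 lay near background, at 3.93 to 4.91 over the 6 arrays, and with values under 5 set to 5 neither differed.

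Inhibitors of these enzymes also fell, with TIMP3 at -0.88, TIMP2 at -0.45 and TIMP1 at -0.12 (-0.08 and not called without c-Jun siRNA replicate 2), while RECK rose by 0.47. In the plasminogen system, where 3 of 7 rose and 2 fell, PLAT fell and PLAU, the urokinase, rose by 0.70 ± 0.045. PLAU measured 10.78, 10.80 and 10.80 with c-Jun siRNA, against 10.17, 9.99 and 10.12 with control siRNA. Among 30 laminins and matrix glycoproteins 12 fell and 9 rose. TNC, tenascin C, fell by 1.06 and NID2, a basement-membrane protein, fell by 1.30, and LAMB1 rose by 0.62 and TGFBI by 0.51. Of 24 collagens, 4 fell and 2 rose (16.7% and 8.33%, near or below the shares over all genes), with COL3A1 at -0.71 and COL1A2 at 0.62. The collagen falls numbered 2 without replicate 1 or 2 of control siRNA or replicate 1 or 3 of c-Jun siRNA.

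A list of 26 genes known as AP-1 targets did not move one way. With c-Jun siRNA and TNFα 9 were lower and 8 were higher, with a median of -0.04. These are 34.6% and 30.8%, both above the 14.4% and 14.1% over all genes. The falls included MMP9, MMP13, MMP1, HMGA2, a chromatin protein, at -0.47, HBEGF, an EGF-receptor ligand, at -0.46, and IL6, the inflammatory cytokine, at -0.37. IL6 measured 9.74, 9.77 and 9.75, against 10.05, 10.13 and 10.20 with control siRNA. The rises included CCND1, cyclin D1, at 0.50 (0.26 as the mean of its probe sets) and THBS1, thrombospondin 1, at 0.40, and CXCL8 and CCL2 at 0.19 and 0.15. Of the 26, 11 had a called difference between the effects with TNFα and with vehicle, and all 11 were more negative with TNFα. With the number in the array names as a fixed block 6 were called, all more negative.

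**Figure D3:**
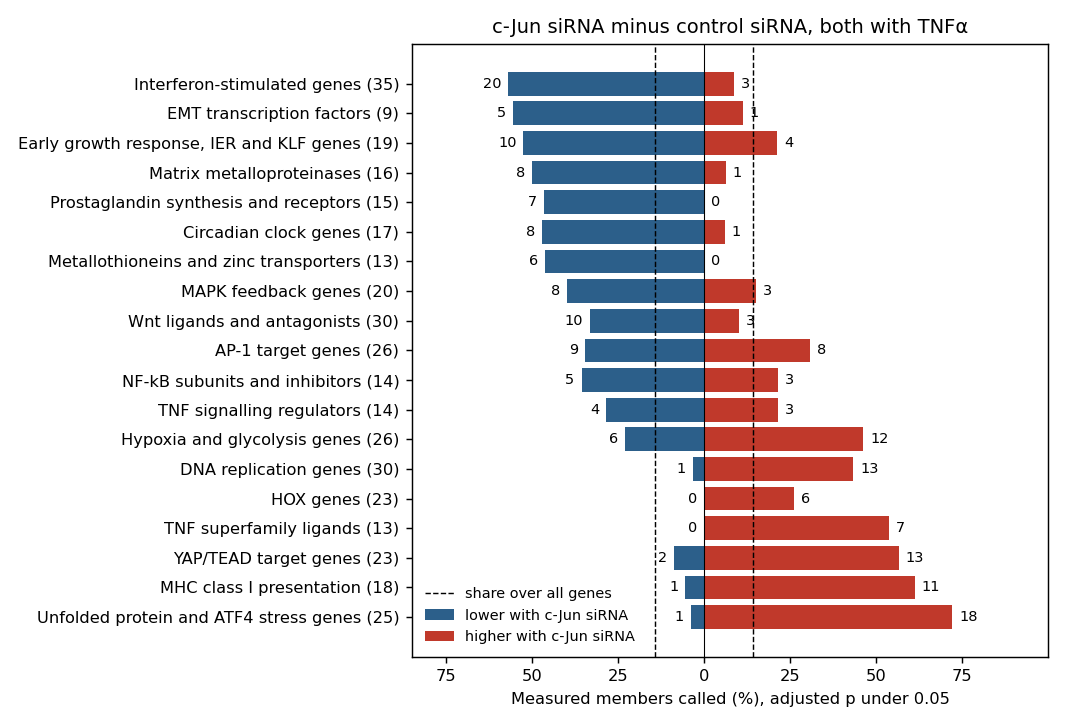
Share of measured members called (horizontal axis, percent) in 19 gene lists, lower with c-Jun siRNA to the left in blue and higher to the right in red, with the number of genes beside each bar and the number measured in brackets. The dashed lines mark the shares over all genes, 14.4% lower and 14.1% higher. Interferon-stimulated genes have 20 of 35 lower, and unfolded protein and ATF4 stress genes have 18 of 25 higher.

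Interferon-stimulated genes, which encode antiviral and antigen-presenting proteins, were mostly lower with c-Jun siRNA when TNFα was present. Of 35 measured, 20 fell and 3 rose, with a median of -0.31. IFIT1, an RNA-binding antiviral protein, measured 8.97, 8.75 and 8.95 with c-Jun siRNA and TNFα, against 9.72, 9.73 and 9.58 with control siRNA and TNFα, a difference of -0.79 ± 0.079 (adjusted p = 4e-07). With vehicle the IFIT1 means were 5.99 with c-Jun siRNA and 5.16 with control siRNA, a difference of 0.83 in the other direction. Its TNFα response was 2.90 in cells with c-Jun siRNA and 4.52 in cells with control siRNA. MX1, a GTPase that blocks influenza virus, measured 9.29, 9.13 and 9.33, against 10.02, 9.94 and 9.86 with control siRNA, and fell by 0.69 ± 0.069 (adjusted p = 3.17e-07).

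For IFIH1, the RNA sensor MDA5, the difference was -0.78 with TNFα and 0.45 with vehicle. Other falls were IFIT5 at -0.79, CMPK2 at -0.77, OAS1, an enzyme that activates RNase L, at -0.64, RSAD2 at -0.59 and ISG15, a ubiquitin-like modifier, at -0.38. The rises were LGALS3BP at 0.78, IFITM3 at 0.41 and SAMD9L at 0.23. With vehicle, 21 of the 35 were higher and 1 lower, with a median of 0.42. The difference between the 2 effects was called for 26 of the 35 and was negative for all 26. With the number in the array names as a fixed block 22 were called, all negative. Over all genes 5.47% had a called difference, 1.88% with a more positive effect with TNFα and 3.59% with a more negative one. Within values 7 and 9 of that number, each with 1 array in a group, the list's median with TNFα was -0.34 and -0.30. IFNB1, interferon beta, was at 3.54, 3.54 and 3.64, against 3.53, 3.63 and 3.55 with control siRNA, near the lowest values of the array, and no difference was called (adjusted p = 0.973).

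**Figure D4:**
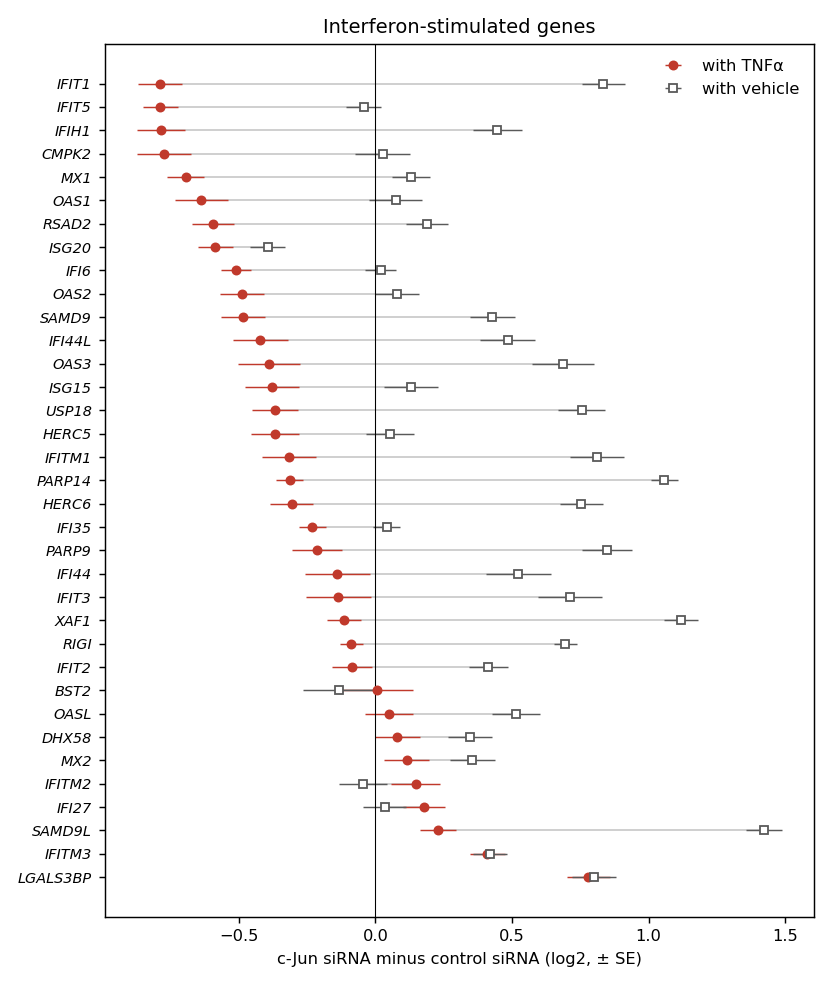
Difference between c-Jun siRNA and control siRNA (horizontal axis, log2, bars are standard errors) for each of 35 interferon-stimulated genes, with TNFα (red circles) and with vehicle (open squares). Most red circles lie left of 0 and most squares right of it, as for IFIT1 at -0.79 and 0.83. LGALS3BP and IFITM3 have nearly equal effects in both.

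Of 8 CXCR3 ligands and other CXC chemokines, 3 fell and 1 rose (37.5% and 12.5%, against 14.4% and 14.1% over all genes). The rise was lost without any single c-Jun siRNA and TNFα array. Among the falls were CXCL10 and CXCL11, CXCR3 ligands that draw T cells. CXCL10 measured 11.16, 11.21 and 11.21 with c-Jun siRNA and TNFα, against 11.54, 11.52 and 11.54 with control siRNA and TNFα, a difference of -0.34 ± 0.10 (adjusted p = 0.0166), and CXCL11 fell by 0.60 ± 0.076. Without control siRNA replicate 3 the adjusted p of CXCL10 was 0.0504, and without c-Jun siRNA replicate 1 it was 0.0571. Signalling genes of the interferon pathway moved less: of 26, 5 rose and 3 fell (19.2% and 11.5%), with a median of 0.03. IRF7 stood at -0.35 and SOCS1 at -0.24. IRF1, a TNFα-responsive interferon regulatory factor, differed by 0.12 (adjusted p = 0.0664). GBP2, a guanylate-binding protein, fell by 0.85, and of the 6 such genes measured GBP3 rose by 0.35.

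MHC class I presentation genes were mostly higher with c-Jun siRNA in both treatments. Of 18 measured, 11 rose and 1 fell with c-Jun siRNA and TNFα, with a median of 0.13. With vehicle 16 rose and none fell, with a median of 0.52. The difference between the 2 effects was called for 12 of the 18 and was negative for all 12, the same direction as in the interferon-stimulated list. With the number in the array names as a fixed block 12 were called, all negative. PSMB9, an immunoproteasome subunit, measured 9.46, 9.53 and 9.48, against 8.66, 8.70 and 8.68 with control siRNA, a difference of 0.81 ± 0.057 with TNFα and 1.84 with vehicle. TAP1, the peptide transporter, measured 11.71, 11.68 and 11.70, against 11.53, 11.52 and 11.49 with control siRNA, a difference of 0.18 with TNFα and 1.59 with vehicle. The HLA class I genes are close copies of each other and their probes may share signal. NLRC5, the class I transactivator, was the fall, at -0.26.

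The chemokine genes CCL5, CXCL8 and CCL2 were at high levels in both groups, and their differences with TNFα were far smaller than with vehicle. CCL5, a chemokine for T cells and monocytes, measured 12.28, 12.23 and 12.22 with c-Jun siRNA and TNFα, against 11.63, 11.56 and 11.62 with control siRNA and TNFα, a rise of 0.64 ± 0.041 (adjusted p = 1.04e-09). With vehicle the difference was 3.07, with means of 8.97 with c-Jun siRNA and 5.90 with control siRNA. CXCL8, interleukin 8, measured 11.63, 11.55 and 11.64, against 11.41, 11.42 and 11.40 with control siRNA, a rise of 0.19 ± 0.061 (adjusted p = 0.0208), with a vehicle difference of 2.47. Its call with TNFα was lost without control siRNA replicate 1 or 3 or c-Jun siRNA replicate 1 or 3, with adjusted p values of 0.0514 to 0.0782. CCL2, the monocyte chemokine, rose by 0.15 with TNFα and differed by 1.84 with vehicle. The arrays of the 2 siRNAs did not overlap for any of the 3 genes. CXCL5, a neutrophil chemokine at 8.97, 8.94 and 9.14 against 7.95, 8.16 and 7.92 with control siRNA, rose by 1.01. CCL7, near background with no array above 4.75, fell by 0.40. With values under 5 set to 5 it did not differ, and without control siRNA replicate 1 its adjusted p was 0.0561.

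The NF-kB and TNF signalling genes showed no common direction. Of 14 NF-kB subunits and inhibitors 5 fell and 3 rose (35.7% and 21.4%, against 14.4% and 14.1% over all genes), with a median of -0.04. NFKB1, the p105 and p50 gene, fell by 0.26 and RELA, the p65 gene, fell by 0.16, and REL rose by 0.44 and the kinase gene IKBKE by 0.53. NFKBIA, the inhibitor IκBα, measured 12.62, 12.52 and 12.62, against 12.58, 12.64 and 12.58 with control siRNA, and its groups overlapped (adjusted p = 0.89). Of 14 regulators of TNF signalling 4 fell and 3 rose (28.6% and 21.4%). TNFAIP3, the ubiquitin editor A20, measured 10.92, 10.97 and 10.84, against 11.15, 11.18 and 11.11 with control siRNA, a difference of -0.24 with TNFα and 0.89 with vehicle. TNIP3, which binds A20, fell by 1.13.

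Among 11 effector genes that TNFα induces, 5 fell and 4 rose, with PTX3 and TNFAIP8, an anti-apoptotic protein, at -0.69, the largest falls. Of 13 ligands of the TNF superfamily 7 rose and none fell (53.8%, against 14.1% higher over all genes), with a median of 0.21, and 5 of the 13 were dim in both groups. The ligands that rose numbered 4 with values under 4 set to 4, 3 within value 7 of the number in the array names, and 4, with 1 fallen, without c-Jun siRNA replicate 2. TNFSF18, the GITR ligand, measured 11.01, 10.90 and 10.96 with c-Jun siRNA and TNFα, against 9.53, 9.50 and 9.59 with control siRNA and TNFα, a rise of 1.42 ± 0.059 (adjusted p = 3.65e-12), against 0.16 with vehicle. TNFSF15, known as TL1A, rose by 1.00 ± 0.086 and TNF itself by 0.31. TNF measured 7.70, 7.77 and 7.68, against 7.44, 7.20 and 7.57 with control siRNA (adjusted p = 0.0206), and it did not pass without replicate 2 of either group (adjusted p = 0.139 without the control array and 0.0694 without the c-Jun siRNA array). Of 15 receptors 5 rose and 5 fell, with TNFRSF9 the largest fall and TNFRSF10A, a TRAIL receptor, the largest rise at 0.55.

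Targets of the transcriptional coactivator YAP and its TEAD partners were mostly higher. Of 23 measured, 13 rose and 2 fell, with a median of 0.14. AJUBA, a LIM protein of the Hippo pathway, measured 9.11, 9.20 and 9.14 with c-Jun siRNA and TNFα, against 7.66, 7.78 and 7.64 with control siRNA and TNFα, a rise of 1.45 ± 0.048 (adjusted p = 1.8e-13). CCN2, connective tissue growth factor, measured 11.47, 11.45 and 11.44, against 10.23, 10.30 and 10.31 with control siRNA, a rise of 1.17. CCN1, its relative, rose by 1.02 with TNFα and differed by 1.99 with vehicle. F3, tissue factor, and TGFB2 were the falls, at -0.42 and -0.36.

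Genes of the unfolded protein response and of ATF4, which raise chaperones and amino acid supply, formed the list with the highest share of rises among the 67 lists. Of 25 measured, 18 rose and 1 fell, with a median of 0.23. CHAC1, a glutathione-degrading ATF4 target, measured 8.64, 8.58 and 8.75, against 7.65, 7.39 and 7.61 with control siRNA, a rise of 1.11 ± 0.067 (adjusted p = 4.64e-10). The serine-synthesis genes PSAT1, PSPH and PHGDH rose by 0.59, 0.53 and 0.38, and the chaperone HSPA5 by 0.25. ATF5 fell by 0.34. With vehicle 18 were higher and 1 lower, and the difference between the effects was called for 2.

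Of 30 DNA replication genes 13 rose and 1 fell (43.3% and 3.33%, against 14.1% and 14.4% over all genes), the largest change being 0.55 for CDC6, a replication licensing factor. Differences of mitosis genes lay between -0.24 and 0.19, with 8 falls and 4 rises among 29 (27.6% and 13.8%). The rises numbered 2 without replicate 2 or 3 of control siRNA or replicate 1 or 2 of c-Jun siRNA. CDKN1A, the cell-cycle inhibitor p21, measured 8.83, 8.67 and 8.88, against 9.73, 9.75 and 9.69 with control siRNA, a difference of -0.93 ± 0.056 (adjusted p = 4.7e-10). CDKN1B, p27, rose by 0.41, CDK6 by 0.55 and CCND1 by 0.50.

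Of 19 early growth response, IER and KLF genes, many of them induced early after a stimulus, 10 fell and 4 rose. These are 52.6% and 21.1%, against 14.4% and 14.1% over all genes, and the list's median was -0.14. All 10 falls and all 4 rises were also called in the same direction with vehicle. NR4A3, an orphan nuclear receptor, measured 8.22, 8.17 and 8.23, against 9.51, 9.49 and 9.50 with control siRNA, and fell by 1.29 ± 0.047. The growth-linked zinc-finger factor KLF5 fell by 1.21 ± 0.055, and KLF9 and EGR3 differed by -0.98 and EGR1 by -0.56. IER2 rose by 0.61. Of 20 genes of the DUSP, SPRY and SPRED families, whose proteins restrain MAP kinase signalling, 8 fell and 3 rose (40% and 15%), the falls led by the phosphatase DUSP16 at -0.68 and the rises by SPRY2, an inhibitor of receptor kinase signalling, at 0.63.

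Prostaglandin genes fell or did not pass: 7 of 15 fell and none rose, with a median of -0.16. PTGER2, a prostaglandin E2 receptor, measured 5.07, 5.00 and 4.92, against 6.59, 6.06 and 6.21 with control siRNA, a difference of -1.29 ± 0.11 with TNFα and -0.00 with vehicle. PTGS2, cyclooxygenase 2, fell by 0.46 and PTGIS, prostacyclin synthase, fell by 1.05. Of 13 metallothionein and zinc transporter genes 6 fell and none rose, with MT1F at -1.30 and MT1E at -0.58, though the MT1 genes are near copies whose probes may share signal. Of 17 clock genes 8 fell and 1 rose, with NPAS2 at -0.99 and CLOCK, its relative, at 0.59.

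Among developmental pathways, 10 of 30 Wnt ligands and antagonists fell and 3 rose, with DKK1 at -0.62 and SFRP2 at -0.99. TGF-beta and BMP genes were divided, 9 higher and 8 lower of 27. TGFB3 fell by 1.26 and BMP6 fell by 1.31, and ID3, a helix-loop-helix inhibitor that BMP signals induce, rose by 1.1. Of 23 HOX genes, 11 of them dim in both groups, 6 rose and none fell (26.1% higher), with HOXB2 at 0.58. Without c-Jun siRNA replicate 3 a HOX gene fell, and within value 7 of the number in the array names 2 rose and 2 fell. HHIP, a Hedgehog-binding inhibitor, rose by 1.39. In the Notch list JAG1 was the largest fall, with HEY1, a Notch target, at -0.50. HEY1 lay near background, with no array above 4.94, and with values under 5 set to 5 it did not differ.

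The test of the difference between the 2 effects called 983 genes (5.47%), of which 338 (1.88%) had a more positive effect with TNFα and 645 (3.59%) a more negative one. The number in the array names was 5 for all 3 vehicle arrays with c-Jun siRNA, against 7 for 2 of 3 with control siRNA, and with it as a fixed block 531 were called, 155 more positive and 376 more negative. Of the 713 also called with TNFα, 158 were lower and 99 were higher with TNFα and not called with vehicle. The effect was in the same direction but larger with TNFα for 152 and smaller for 200. By p the first 10 of the 713 were CCL5, CCL2, TAP1, CXCL8, CCN1, NUAK2, CSF1, PARP14, HLA-B and SIM1. Each had a more negative effect with TNFα. NUAK2, a kinase, rose by 0.45 with TNFα and differed by 1.84 with vehicle, and CSF1, the macrophage growth factor, fell by 0.23 with TNFα and differed by 0.90 with vehicle. PARP14, an ADP-ribosyltransferase, differed by -0.31 with TNFα and 1.06 with vehicle, HLA-B, an MHC class I heavy chain, by 0.11 and 0.92, and SIM1, a transcription factor, by -0.18 and 0.68. Another 270 were not called with TNFα at all.

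Markers of other cells the samples could hold gave the following. Of 12 endothelial markers 3 rose, TEK by 0.61, ROBO4 by 0.65 and EGFL7 by 0.34, and none fell. Fibroblast and pericyte markers had 6 rises and 1 fall among 13, with RGS5 the largest and FAP at 0.69. The mean level of this list ran from 7.05 to 7.06 with c-Jun siRNA and TNFα, against 6.66 to 6.70 with control siRNA and TNFα. Its mean difference was 0.37 but its median only 0.09, and RGS5 alone rose by 3.55. Of 15 luminal markers 4 rose and 1 fell, and their mean ran from 6.41 to 6.47, against 6.32 to 6.38. The leukocyte list ran from 4.81 to 4.87, against 4.78 to 4.84. Their part in the results was not tested.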

How the data were processed

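Total RNA of BT549 cells was hybridised to Affymetrix human gene arrays. The deposited log2 values per probe set were used without further normalisation; per the submitters' processing notes the tools were Affymetrix Expression Console 1.1 and PLIER, whose roles are not given in the sources used here. The base of the logarithm was inferred from values of 2.27 to 13.97. The medians of the 12 arrays ran from 5.62 to 5.68, and precision is set by 3 arrays a group.

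Of 33297 probe sets, 19181 had 1 gene symbol, 2055 several and 12061 none here. A gene with several probe sets (895 genes) was represented by the one with the highest mean over 12 arrays, without a filter on dim genes. limma 3.58.1 in R 4.3.3 fitted a mean per group to all 12 arrays with a mean-variance trend (8 residual degrees of freedom, prior 9.29). Tests were two-sided and Benjamini-Hochberg adjusted over 17958 genes, called at 0.05. Errors are standard errors from this fit. On simulated data with known changes the fit recovered 52.2% of differences of 0.25, 86.6% of 0.5 and 100% of 1. Of its calls 4.22% were false. The simulated noise was independent between arrays, and a far smaller share of genes was changed than was called here. These rates may therefore not hold for these data, and they say nothing about replicates that are technical.

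The comparison, the named members and the 67 gene lists (1130 of 1234 entries measured) were chosen with earlier results of these data known. The text names JUN, ZEB2, the Jun and Fos genes, and up to 6 called members a list with the largest changes. It also names the 20 largest rises and falls among called genes whose arrays do not overlap. From the genes called with TNFα, it names the 10 with the smallest p for the difference between effects. IFNB1, IRF1, NFKBIA, RELA, TNFAIP3, TNF, CXCL8 and members of a list named beyond these, with the promoter of CXCL8, were chosen after their values were seen. Lists are described by counts and medians and were not tested.

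Same-numbered arrays of the 2 siRNAs did not deviate together (correlations of -0.0437, 0.0366 and -0.0207). Alternatives changed the scaling, the floor, the filter on dim genes, the variance model, the choice of probe set, blocks and single arrays.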

Additional observations from a re-analysis of the deposited data

Results flagged for a closer look

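The difference between the knockdown effect with TNFα and that with vehicle was tested with limma's interaction test. It passed at an adjusted p under 0.05 for 35 of the genes whose effects are given under both treatments. These are the results set out here, and those that did not pass are left out. Over all genes 5.47% passed. Of the 35, 10 were named for their small p in this test, so their passing was fixed by that choice. A negative difference means that with TNFα c-Jun siRNA raised the gene less, lowered it more, or lowered it where it was higher with vehicle. The most negative differences were those of CCL5 at -2.43, CXCL8 at -2.27, PTX3 at -1.70, CCL2 at -1.69, TNFRSF9 at -1.67 and IFIT1 at -1.62. TAP1 followed at -1.40, NUAK2 at -1.38, PARP14 at -1.37, PTGER2 at -1.29, PLAT at -1.28, RNF150 at -1.28, CPNE8 at -1.26, IFIH1 at -1.23 and MMP9 at -1.21. CSF1 stood at -1.13, MAOB at -1.13, TNFAIP3 at -1.13, SEMA6A at -1.11, PSMB9 at -1.03, CCN1 at -0.97, SIM1 at -0.87, HLA-B at -0.82, MMP1 at -0.67, SLC2A1 at -0.64 and SNAI2 at -0.57. ZEB2 at -0.38, RGS5 at -0.30 and JUN at -0.19 were small. As the mean of its probe sets the ZEB2 difference was -0.35 and did not pass (adjusted p = 0.12). The positive differences, where c-Jun siRNA raised the gene more with TNFα, were those of SAA2 at 2.50, IGFL1 at 1.82, EDN1 at 1.66, TNFSF18 at 1.25, ADM at 0.73 and DHRS3 at 0.56. With the number in the array names as a fixed block 33 of the 35 passed.

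Probe sets outside the gene comparison also changed with TNFα. Of 12061 probe sets without a gene symbol here, 493 were called, or 4.09%, and of 2055 with several symbols 299 were called, or 14.5%, in a fit over all 33297 probe sets.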

How the results depend on the processing

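Over 29 alternatives the effect with TNFα of the 199 named genes kept its direction and its side of the threshold in 5579 of 5704 values, and 41 genes had a value that did not. The number of genes called with TNFα was 5116. It was 3182 within value 9 of the number in the array names, which leaves 3 arrays and 1 of them in the control group, and 148 with a fold of at least 2, and with a single array left out it ran from 4440 to 5190. The number called for the difference between effects was 983. It was 531 with the number in the array names as a fixed block, 553 at an adjusted p under 0.01 and 51 at 2-fold, and with a single array left out it ran from 774 to 1009. JUN kept its fall with TNFα in all of them, and with a single array left out its difference ran from -0.73 to -0.69. The difference between its effects did not pass without control siRNA and TNFα replicate 1 (adjusted p = 0.054), without a trend in the variances (adjusted p = 0.0806) or with the fixed block (adjusted p = 0.0554). Under the replicate block 5070 genes were called with TNFα and 937 for the difference between effects, but the replicate numbers do not pair the arrays.

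Genes that were not called changed sign in 14 values. FOSB was at 0.0342 within value 9 and between -0.056 and 0.0161 with a single array left out, positive without control siRNA replicate 2 or c-Jun siRNA replicate 2. FOSL1 was at -0.052 within value 9 and between -0.0017 and 0.0668 with a single array left out, negative without control siRNA replicate 2. NFKBIA was at 0.0445 within value 9 and between -0.0318 and 0.0212, positive without replicate 2 of either TNFα group. IFNB1 was at -0.0491 within value 7, -0.0043 with c-Jun siRNA replicates 1 and 3 averaged, and between -0.0301 and 0.0336 with a single array left out, negative without control siRNA replicate 1 or 3 or c-Jun siRNA replicate 3. SNAI1 was at -0.058 within value 7. The cause was not tested. Averaging replicates 1 and 3 of c-Jun siRNA with TNFα left 4610 calls with TNFα and 867 for the difference between effects, brought the falls among collagens to 2 and among complement genes to 1, and ended the calls of CXCL8 (adjusted p = 0.0725), HLA-B (adjusted p = 0.0615) and JUND (adjusted p = 0.0579). With a single array left out, the calls of CCL7, CXCL10, CXCL8, HLA-B, JUND, NLRC5, PRRX1, SAMD9L, TCF4, TIMP1 and TNF were lost at least once, and FOS, IRF1 and JUNB passed at least once. The interaction of RGS5 was lost without any of 9 arrays, with adjusted p values of 0.0769 to 0.123. It was also lost with array weights, median centring, either floor, the replicate block or no trend in the variances. The number in the array names as a fixed or a random block ended it too (adjusted p = 0.244 and 0.0508). The interferon-stimulated list had 12 to 21 members lower, the fewest without the dimmest 50% of genes, where fewer members were tested, and a median of -0.35 to -0.27. MMP genes had 5 to 10 lower, MHC class I genes 5 to 12 higher and the unfolded protein and ATF4 list 13 to 20 higher.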

Other observations

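Several other gene lists were read on the same 6 arrays. Over all genes 14.1% were higher and 14.4% were lower. Of 26 hypoxia and glycolysis genes 12 rose and 6 fell with c-Jun siRNA and TNFα (46.2% and 23.1%), with a median of 0.10. BNIP3, a mitophagy receptor, rose by 0.67, and the collagen-modifying enzyme P4HA2 by 0.57, whereas SLC2A1, the glucose transporter GLUT1, fell by 0.57 with TNFα and differed by 0.07 with vehicle. SLC2A1 measured 10.68, 10.68 and 10.63 with c-Jun siRNA, against 11.27, 11.21 and 11.22 with control siRNA, so its groups were apart. Of 22 apoptosis regulators 8 rose (36.4%) and 3 fell (13.6%, and 1 gene without control siRNA replicate 1). PMAIP1, the BH3-only protein NOXA, stood at 0.93 and BCL2L11, the BH3-only protein BIM, at -0.34. Of 18 other interleukins and their receptors 7 rose and 1 fell (38.9% and 5.56%). IL7R, a receptor for interleukin 7 and TSLP, stood at 0.75 and TSLP itself at -0.81. TSLP lay near background, and with values under 5 set to 5 it differed by -0.14 (adjusted p = 0.0801). Complement and acute-phase genes had 6 rises and 2 falls of 18 (33.3% and 11.1%), with C3, the central complement protein, at 0.79.

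Growth factor genes were even, 9 higher and 9 lower of 34 (26.5% each), with FGF1 at 1.26 and KITLG, the KIT ligand, at -1.0. Of 20 cadherins and protocadherins 5 fell and 3 rose (25% and 15%), with PCDH18 at -1.32. Of 18 integrins 5 rose and 3 fell (27.8% and 16.7%), with ITGB5 at 0.74 and ITGB3 at -0.63. The integrin rises numbered 3 without control siRNA replicate 3 or c-Jun siRNA replicate 1. Of 21 oxidant defence genes 7 rose and 3 fell (33.3% and 14.3%), with GPX3, a secreted glutathione peroxidase, at 0.69. Cholesterol and fatty acid genes had 5 rises and 3 falls of 19 (26.3% and 15.8%). Ribosome biogenesis factors had 2 rises of 17 (11.8%, below the 14.1% over all genes) and heat shock genes 3 rises of 13 (23.1%). Reference genes had 4 rises and 1 fall of 10 (40% and 10%), the largest being TBP at 0.30. Without control siRNA replicate 2 the reference genes had 2 rises.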
